A study of Rattus norvegicus with 10 samples.

Results

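The PAR bZIP factor genes Dbp, Tef and Hlf, the related repressor gene Nfil3, and the Bhlhe40 and Bhlhe41 repressor genes pass the time of the circadian clock on to other genes, and their signals were followed in the livers of cirrhotic rats. The 6 genes were proposed with earlier results of the same arrays in view, and each was read from a probe set annotated to a single gene symbol. Where a gene has several, the one used was chosen by its log2 signals in the same 10 rats, as the most variable, so levels, spreads and the relation to Bmal1 are given as descriptions. All 6 had such a probe set, of 14217 genes that could be read in the same way. All livers, in both groups, were cirrhotic after inhalation of CCl4 by male Wistar rats. A group of 5 rats received CVX-060, an inhibitor of angiopoietin 2, intravenously at 10 mg/kg in 500 μl of saline once a week for 4 weeks, and another 5 received vehicle once a week. Neither the age of the rats nor the clock time at which the livers were taken is given in the sources used here, and no healthy liver was analysed.

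In the core clock, CLOCK and BMAL1 bind E-boxes and switch on the Per, Cry, Nr1d and Dbp genes, and the products of the Nr1d genes in turn repress Bmal1 and Nfil3. The factors DBP, TEF and HLF activate genes through a motif called the D-box, which NFIL3 occupies as a repressor, so that D-box genes read the balance of both. The proteins of Bhlhe40 and Bhlhe41 bind E-boxes themselves and hold back CLOCK and BMAL1. In rodent liver Dbp messenger RNA is known for a daily swing of large size, with Bmal1 high when Dbp is low.

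Promoter sequences of the genes were set beside their signals to show which of them carry the letters that these factors read. The RefSeq promoters, 250 bases before to 50 bases after the transcription start, were found for 5 of the 6 members in build GRCr8, and not for Hlf. They lie at chr1:105312006-105312305 for Dbp (plus strand), chr7:115206577-115206876 for Tef (plus strand), chr17:12432126-12432425 for Nfil3 (plus strand), chr4:143174200-143174499 for Bhlhe40 (plus strand) and chr4:180569306-180569605 for Bhlhe41 (minus strand). Each is written 5′ to 3′ in the direction of its gene, and capitals mark an E-box.
Dbp: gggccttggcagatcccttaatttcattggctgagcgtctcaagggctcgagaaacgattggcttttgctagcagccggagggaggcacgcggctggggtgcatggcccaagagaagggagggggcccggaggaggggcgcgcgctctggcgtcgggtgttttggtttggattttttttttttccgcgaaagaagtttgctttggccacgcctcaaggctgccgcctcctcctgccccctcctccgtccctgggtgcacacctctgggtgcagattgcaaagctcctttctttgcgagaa
Tef: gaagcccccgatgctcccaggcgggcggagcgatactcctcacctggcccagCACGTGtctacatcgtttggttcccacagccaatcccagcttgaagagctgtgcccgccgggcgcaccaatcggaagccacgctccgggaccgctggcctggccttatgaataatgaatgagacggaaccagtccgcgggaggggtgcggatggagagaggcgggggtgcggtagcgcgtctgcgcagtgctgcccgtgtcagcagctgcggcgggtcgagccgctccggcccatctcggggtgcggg
Nfil3: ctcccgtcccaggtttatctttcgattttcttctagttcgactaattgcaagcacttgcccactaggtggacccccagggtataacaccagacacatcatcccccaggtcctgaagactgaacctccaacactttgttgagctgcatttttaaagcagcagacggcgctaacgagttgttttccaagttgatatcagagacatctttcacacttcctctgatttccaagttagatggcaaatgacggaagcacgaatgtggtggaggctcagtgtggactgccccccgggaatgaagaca
Bhlhe40: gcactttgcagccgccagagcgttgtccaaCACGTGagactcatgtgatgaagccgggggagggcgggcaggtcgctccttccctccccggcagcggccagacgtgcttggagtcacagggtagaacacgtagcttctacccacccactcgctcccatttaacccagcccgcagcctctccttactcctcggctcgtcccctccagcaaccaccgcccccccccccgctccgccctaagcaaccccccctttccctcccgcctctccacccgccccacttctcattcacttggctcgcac
Bhlhe41: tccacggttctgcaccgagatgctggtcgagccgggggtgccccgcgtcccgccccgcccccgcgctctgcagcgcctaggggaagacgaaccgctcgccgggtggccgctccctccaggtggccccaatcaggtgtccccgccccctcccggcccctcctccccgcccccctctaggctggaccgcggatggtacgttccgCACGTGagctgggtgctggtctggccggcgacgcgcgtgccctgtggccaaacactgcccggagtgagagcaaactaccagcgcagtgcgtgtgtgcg

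Both strands were searched for the E-box CACGTG, the related CACGTT, the D-boxes TTATGTAA and TTACGTAA, and the core of the element read by the Nr1d and Ror receptors, TAGGTCA or TGGGTCA. An E-box was found in Tef, Bhlhe40 and Bhlhe41, beginning at base -198, -220 and -48 from the start. Over 27457 RefSeq promoters of this length, 6.65% held an E-box, 4.93% CACGTT, 1.01% a D-box and 6.51% a receptor core. The windows of Dbp and Nfil3 held none of these letters, which describes 300 bases only. The promoter of Bmal1, searched for comparison, held a receptor core beginning at base -16.

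The values are log2 signals that the authors had normalized between arrays, an array per rat, with array medians from 5.52 to 5.57. Hepatocyte markers were high in every liver, with Alb from 14.77 to 14.81 in the CVX-060 rats and from 14.78 to 14.81 in the vehicle rats. As a level of background, the 95th percentile of 32 probe sets for receptors of smell, which liver does not use, was taken on each array and lay from 5.46 to 5.83, and a signal below it does not show that the RNA is absent. In the paper, 2 replicates of each treatment were kept after checks of quality and of principal components, and its methods do not say which. All rats were used here. CVX-060 rat 5 and vehicle rat 2 stood apart on the first principal component, which held 35.4% of the variance, with scores of 35.47 and 34.49, where the other 8 rats lay from -26.22 to 9.74. In both of these rats the female-type gene Cyp2c12 was high, at 12.02 in CVX-060 rat 5 and 12.71 in vehicle rat 2, where the others lay from 7.11 to 9.79. The male-type gene Cyp2c11 was low in the same rats, at 11.42 and 8.99, where the others lay from 12.69 to 13.93. In whole liver, fewer cells of a type and less RNA per cell cannot be told apart.

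Dbp differed more between single rats than between the groups. Its log2 signal was 6.12, 5.84, 5.91, 9.33 and 9.86 in CVX-060 rats 1 to 5, and 7.01, 6.76, 9.62, 10.04 and 9.88 in vehicle rats 1 to 5. Each group thus held both low and high rats, with CVX-060 rats 1, 2 and 3 and vehicle rats 1 and 2 low, and the groups overlapped. The lowest and highest rats were 18.4-fold apart, and only 14 of 14217 genes had a larger SD over the 10 rats than the 1.85 of Dbp (the median gene had 0.18, each gene read from its own most variable probe set). The mean was 7.41 ± 2.01 with CVX-060 and 8.66 ± 1.63 with vehicle (SD, n = 5 each), a difference of -1.25 on the log2 scale with a 95% interval from -3.49 to 0.99 (exact permutation test, two-sided, p = 0.222). Without CVX-060 rat 5 and vehicle rat 2 it was -2.34 (adjusted p = 0.99986 over all genes). With single rats left out the difference ran from -1.86 to -0.86.

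**Figure D1:**
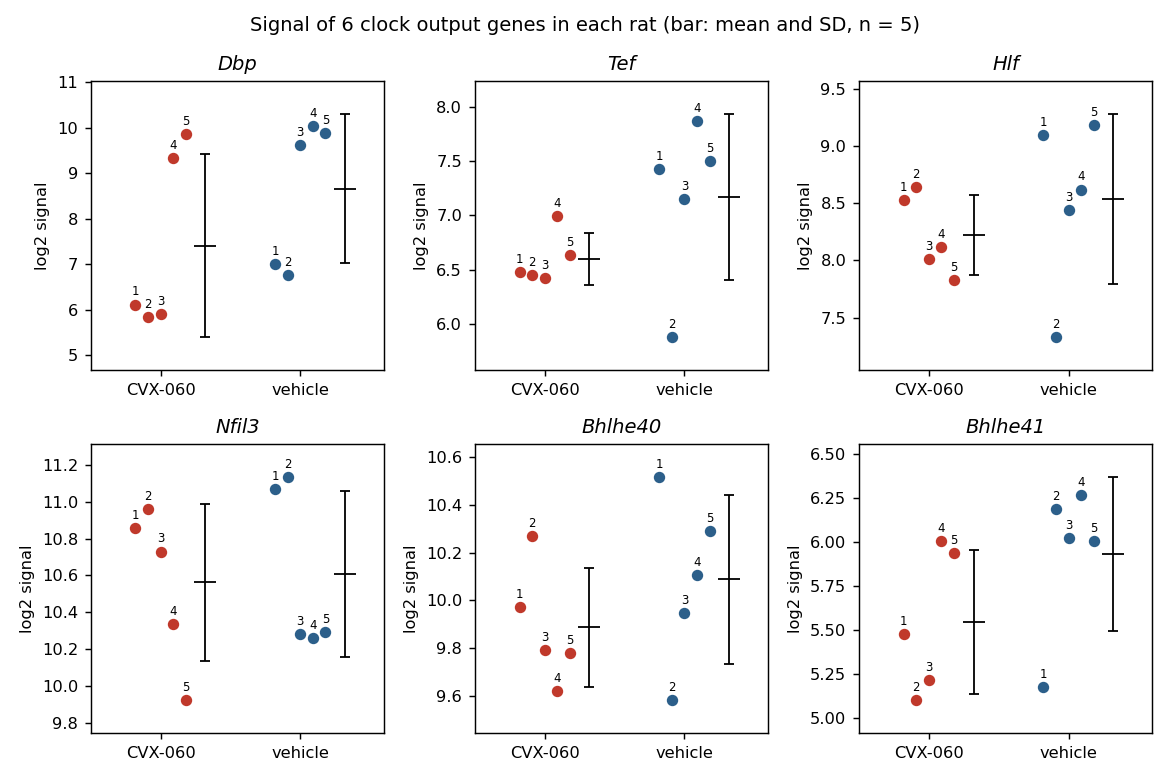
Log2 signal of the 6 genes in each of 5 CVX-060 rats (left, red) and 5 vehicle rats (right, blue), numbered by rat. Bars give the mean and SD per group. Dbp falls into low rats at 5.84 to 7.01 and high rats at 9.33 to 10.04 in both groups, and the groups overlap for each gene.

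Tef, the gene of thyrotroph embryonic factor, was lower with CVX-060 in its mean, and its CVX-060 rats lay close together. Their signals were 6.48, 6.45, 6.42, 7.00 and 6.63, against 7.43, 5.88, 7.15, 7.88 and 7.50 in the vehicle rats. All CVX-060 rats lay below vehicle rats 1, 3, 4 and 5, while vehicle rat 2 had the lowest signal of all. The means were 6.60 ± 0.24 with CVX-060 and 7.17 ± 0.77 with vehicle, a difference of -0.57 with an interval from -1.27 to 0.13 (exact permutation p = 0.167). Without vehicle rat 2 the difference was -0.89 (unadjusted p = 2.9e-04 in limma, adjusted p = 0.910 over all genes), and without it and CVX-060 rat 5 it was -0.90. As that rat had the lowest signal, leaving it out could only widen the difference. The difference was -0.40 without vehicle rat 4 and -0.49 without vehicle rat 5, so single vehicle rats moved it in both directions. Tef has further probe sets, of which 1390819_at had 7.93, 7.78, 7.13, 8.30 and 8.36 with CVX-060 and 7.96, 7.56, 8.54, 8.70 and 8.71 with vehicle. It differed by -0.39 (exact permutation p = 0.230) and set the rats in another order, with vehicle rat 1 among its lower rats. The probe set 1369919_at lay between 4.25 and 4.93, below the background of its array in all 10 rats, and no difference is given for it. The rule chose 1385374_at, with a variance of 0.377, over 1390819_at with 0.269.

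Hlf, the gene of hepatic leukemia factor, spread widely among the vehicle rats. The CVX-060 rats had 8.53, 8.65, 8.01, 8.12 and 7.83, and the vehicle rats 9.10, 7.33, 8.44, 8.62 and 9.18. Vehicle rats 1 and 5 were above every CVX-060 rat and vehicle rat 2 below every one. The means were 8.23 ± 0.35 with CVX-060 and 8.54 ± 0.74 with vehicle, and the difference of -0.31 had an interval from -1.03 to 0.41 (exact permutation p = 0.452). Other probe sets of Hlf differed by -0.25 (1374709_at) and -0.18 (1385585_at), and 1384811_at lay between 3.55 and 4.20, below the background of its array in all 10 rats. On both brighter ones, vehicle rat 2 was again the lowest rat, at 7.11 and 7.79, and vehicle rat 5 the highest, at 9.11 and 9.44. Vehicle rat 2 is the rat of lowest Cyp2c11, and the part of this in the Hlf values was not tested. Without vehicle rat 2 the difference of Hlf was -0.61 (adjusted p = 0.910), and without this rat and CVX-060 rat 5 it was -0.51. Without vehicle rat 1 it was -0.17 and without vehicle rat 5 it was -0.15, so single vehicle rats moved it in both directions. The probe set 1386641_at was chosen, with a variance of 0.324, over 1374709_at with 0.291.

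Nfil3, whose protein represses at the D-box, split the rats into the same sets as Dbp, in the opposite direction. It had 10.86, 10.96, 10.73, 10.34 and 9.93 in the CVX-060 rats, against 11.07, 11.13, 10.28, 10.26 and 10.29 in the vehicle rats. The 5 rats with the higher Nfil3 signals, CVX-060 rats 1, 2 and 3 and vehicle rats 1 and 2, are the 5 with the lower Dbp signals. Among these 5 the order was not opposite, as vehicle rats 1 and 2 had the highest signals of both genes. The swing of Nfil3 over the 10 rats was 2.31-fold. Its group means of 10.56 ± 0.43 and 10.61 ± 0.45 for CVX-060 and vehicle differed by -0.04, with an interval from -0.59 to 0.50 (exact permutation p = 0.889). The sign was not stable, as the difference was above 0 in 6 of 19 alternatives, among them those without CVX-060 rat 4 (0.01), CVX-060 rat 5 (0.11), vehicle rat 1 (0.07) or vehicle rat 2 (0.09). T and NK cell markers, a further source of Nfil3, were dim in nearly all livers, with the mean of 5 genes between 4.65 and 5.08 in the CVX-060 rats and between 4.65 and 4.80 in the vehicle rats.

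Bhlhe40, which is also induced by hypoxia, varied least of the 6, by 1.91-fold over the rats. Its signals were 9.97, 10.27, 9.79, 9.62 and 9.78 with CVX-060 and 10.52, 9.59, 9.95, 10.11 and 10.29 with vehicle. Vehicle rat 1 was the highest and vehicle rat 2 the lowest, and the groups overlapped. The means were 9.89 ± 0.25 with CVX-060 and 10.09 ± 0.35 with vehicle, a difference of -0.20 with an interval from -0.59 to 0.19 (exact permutation p = 0.349). Without vehicle rat 2 it was -0.33 and without vehicle rat 1 it was -0.09. Of 10 hypoxia target genes measured, 6 had a higher and 4 a lower mean with CVX-060 (median difference 0.01), among them Vegfa at -0.22, Ankrd37 at -0.75 (above the background in 8 of 10 rats) and Slc2a1 at 0.21, and 0 passed an adjusted p of 0.05 in limma (0 at an unadjusted p under 0.05). These counts include Car9, not above the background in any of the 10 rats, Adm, not in 8 of them, and Egln3, not in 7.

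Bhlhe41 had 5.48, 5.10, 5.21, 6.003 and 5.94 in the CVX-060 rats and 5.17, 6.18, 6.02, 6.27 and 6.002 in the vehicle rats. It was low in CVX-060 rats 1, 2 and 3 and vehicle rat 1, near 6 in the other rats, and the groups overlapped. The means were 5.55 ± 0.41 with CVX-060 and 5.93 ± 0.44 with vehicle, a difference of -0.38 with an interval from -0.91 to 0.15 (exact permutation p = 0.175). Without vehicle rat 1 the difference was -0.57 (adjusted p = 0.99993 over all genes), and without CVX-060 rat 2 it was -0.27. These signals are dim, and Bhlhe41 exceeded the background of its array in 2 of 5 CVX-060 and 4 of 5 vehicle rats, so the size of its difference is uncertain.

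Set side by side, the 6 genes each had a lower mean with CVX-060, as did 47.4% of all genes, with a median difference of -0.35, against 0.01 over all genes. That of Nfil3, -0.04, changed sign when any of 4 single rats was left out. All 11 of their probe sets had a lower mean, 2 of them below the background in every rat. No member passed an adjusted p of 0.05 in limma (0 of 6), where 0 of 14217 genes did (0%), and none had an unadjusted p under 0.05, which 347 genes reached (2.44%, with 1.17% lower and 1.27% higher with CVX-060). Every member overlapped between CVX-060 and vehicle, whereas 0.485% of all genes did not overlap. The genes are not independent of each other, since they follow the same 10 rats.

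**Figure D2:**
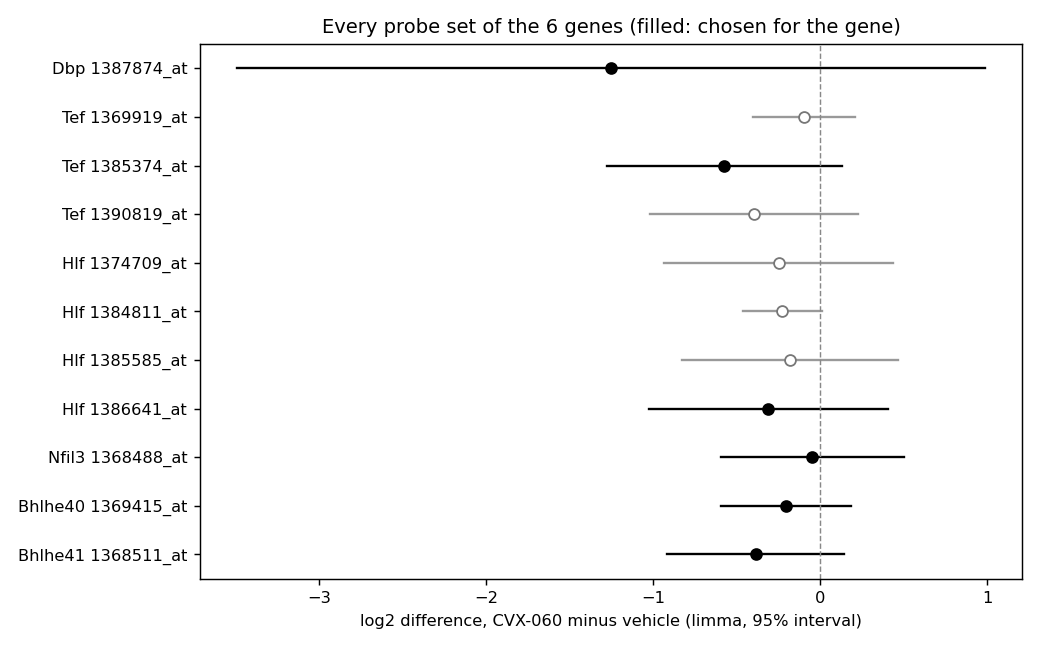
Difference between CVX-060 and vehicle (CVX-060 minus vehicle, log2) of all 11 probe sets of the 6 genes, with the 95% interval from limma (filled points are the probe sets chosen for each gene). Every point lies below 0 and every interval includes 0, from -1.25 for Dbp to -0.04 for Nfil3, and the probe sets Tef 1369919_at and Hlf 1384811_at were below background in all rats.

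The pattern across rats was set beside Bmal1, which is high when Dbp is low in rodent liver. Bmal1 had 8.38, 8.75, 8.17, 5.75 and 5.21 in the CVX-060 rats and 7.90, 7.95, 5.13, 4.87 and 4.88 in the vehicle rats. There was a gap of 2.15 between neighbouring rats, 55.5% of its whole range, with CVX-060 rats 4 and 5 and vehicle rats 3, 4 and 5 below it and the other 5 above. No correlation is given across such separate sets of rats, and a set of 5 is too small for its own, so the values are described only. All 5 low Bmal1 signals lay below the background of their own arrays, so the size of the gap, and any fit that uses the Bmal1 signal, is uncertain. Since the genes were named with this relation known, it is no test of it either.

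Dbp lay from 5.84 to 7.01 in the rats above the Bmal1 gap and from 9.33 to 10.04 in those below it, with no overlap. Nfil3 went the other way, from 10.73 to 11.13 above the gap and from 9.93 to 10.34 below it, again without overlap. Bhlhe41 lay from 5.10 to 6.18 above the gap and from 5.94 to 6.27 below it, and vehicle rat 2 was the rat that crossed. Tef overlapped on its chosen probe set, through vehicle rat 1 at 7.43, but not on 1390819_at, which had 7.13 to 7.96 above the gap and 8.30 to 8.71 below it. Hlf, on all 4 probe sets, and Bhlhe40 overlapped widely. A separation without overlap, in either direction, was thus seen for 2 of the 6 members, beside 2.63% of the other 14216 genes (1.66% lower and 0.971% higher above the gap), and nothing is read from that count.

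**Figure D3:**
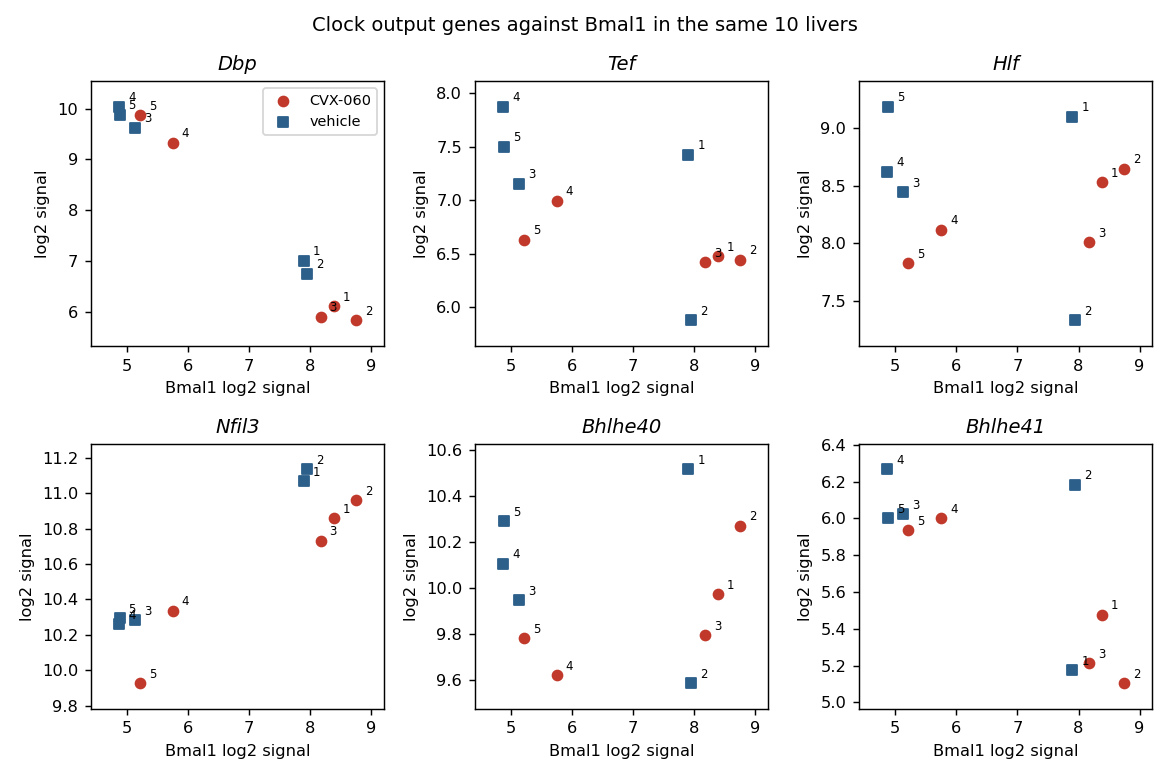
Log2 signal of each of the 6 genes (vertical) against that of Bmal1 (horizontal) in the same livers, CVX-060 rats as red circles and vehicle rats as blue squares, numbered by rat. Dbp and Nfil3 form 2 sets of rats without overlap in opposite directions, while Hlf and Bhlhe40 spread as much within the sets as between them.

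Within the sets, CVX-060 and vehicle rats can be read side by side. Above the gap the CVX-060 rats had Dbp at 5.84 to 6.12, below vehicle rats 1 and 2 at 7.01 and 6.76, and Bmal1 at 8.17 to 8.75, above their 7.90 and 7.95. Their Nfil3 lay at 10.73 to 10.96, against 11.07 and 11.13 in vehicle rats 1 and 2. These are 3 CVX-060 rats against 2 vehicle rats, and the genes follow the same rats. The share of all genes that separate in this way was not counted, and nothing is read from these separations. Below the gap the groups overlapped in both genes, with Dbp at 9.33 and 9.86 in CVX-060 rats 4 and 5, against 9.62, 10.04 and 9.88 in vehicle rats 3, 4 and 5. Nfil3 had 10.34 and 9.93 in these CVX-060 rats, against 10.28, 10.26 and 10.29 in these vehicle rats. With the Bmal1 signal as a covariate the difference of Dbp was -0.02 (adjusted p = 0.992) and that of Nfil3 was -0.34 (unadjusted p = 0.00121, adjusted p = 0.834 over 14216 genes), so neither passed. The same fit gave -0.35 for Tef, -0.30 for Hlf, -0.25 for Bhlhe40 and -0.18 for Bhlhe41.

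**Figure D4:**
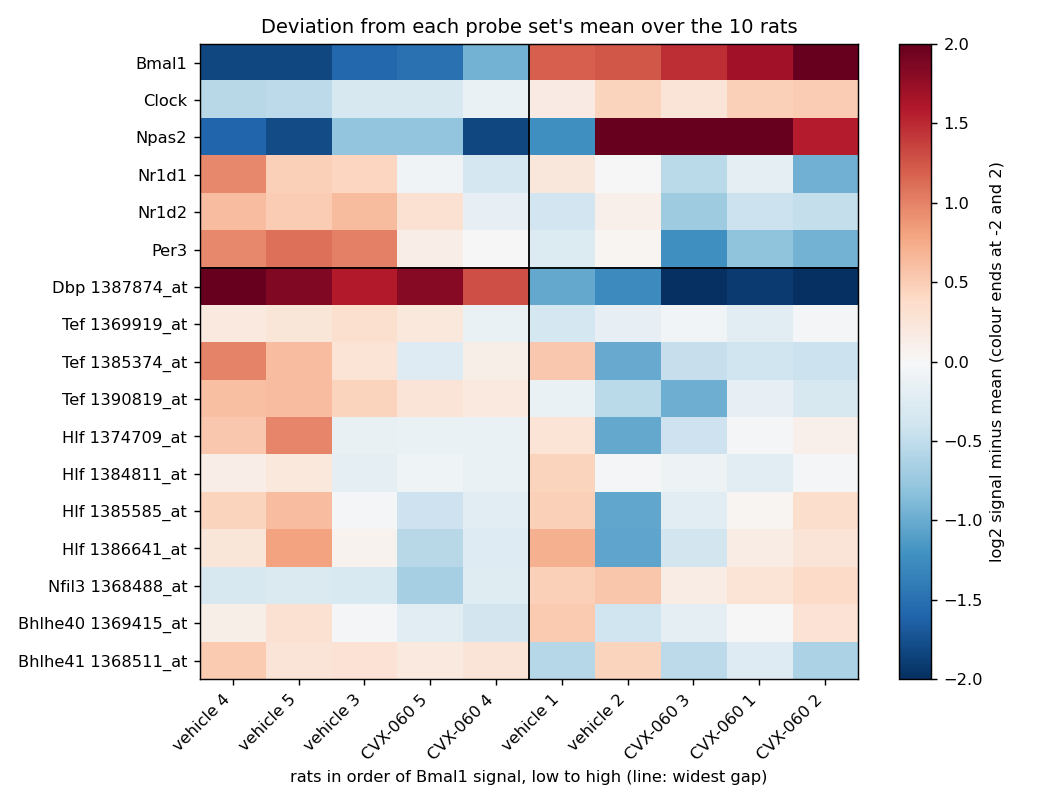
Deviation of each probe set from its mean over the 10 rats (colour, log2 scale, ends at -2 and 2), with the rats in order of Bmal1 from low to high and 5 further clock genes above the members. The Dbp row changes sign at the widest gap in Bmal1, the Nfil3 row changes the other way, and Npas2 in vehicle rat 1, below background, stands on the side of high Bmal1.

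The core clock genes that drive or answer the members were counted in the same fit. Of 4 activator genes measured, 3 had a higher mean with CVX-060 (median 0.71), among them Clock at 0.32, and Rora was at -0.11. Npas2 exceeded the background in 3 of 5 CVX-060 rats, at 7.29 to 7.96, and in 1 of 5 vehicle rats, at 7.71, and its difference has no exact size, which holds for the Bmal1 signal and for the median as well. Of 7 repressor genes, 6 had a lower mean (median -0.59), with Per1 at -0.11, Per2 at -0.59, Cry2 at -0.03 and Cry1 at 0.53. Nr1d1, which encodes REV-ERBα, had 5.86, 5.08, 5.49, 5.69 and 5.97 with CVX-060 and 6.27, 6.03, 6.47, 7.01 and 6.52 with vehicle. Its groups did not overlap, as in 0.485% of all genes, but only 2 of 5 CVX-060 rats exceeded the background, against 5 of 5 vehicle rats. The measured difference was -0.84 (exact permutation p = 0.00794, the smallest this design can give, and adjusted p = 0.99997 in limma over all genes). Nr1d2 differed by -0.59 (exact permutation p = 0.0635) and Per3 by -1.14 (exact permutation p = 0.0397). Per3 too exceeded the background in 2 of 5 CVX-060 and 5 of 5 vehicle rats, so that the sizes for Nr1d1 and Per3 are uncertain. Of these 11 genes 0 passed an adjusted p of 0.05 in limma. Nr1d1, Nr1d2 and Per3 had an unadjusted p under 0.05, as did 2.44% of all genes. They follow the same rats and are not independent of each other.

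Genes that the PAR bZIP factors and NFIL3 are known to act on were counted as well. Of 8 measured, 7 had a lower and 1 a higher mean with CVX-060 (median -0.13), and 0 passed an adjusted p of 0.05 in limma (0 at an unadjusted p under 0.05). Por, the electron donor of the cytochrome P450 enzymes, had 8.84, 9.28, 8.66, 9.97 and 9.66 with CVX-060 and 9.41, 9.53, 9.59, 9.87 and 10.12 with vehicle, a difference of -0.42 (exact permutation p = 0.175). Its 5 lower rats were those of Dbp, but narrowly, at up to 9.53 against 9.59 and above in the others. Only 1 of the 8 genes split so, beside 1.66% of the other 14216 genes in the same direction. Cyp7a1, the rate-limiting enzyme of bile acid synthesis, had 10.73, 11.27, 11.43, 12.04 and 12.23 with CVX-060 and 10.34, 12.10, 11.66, 12.42 and 12.05 with vehicle. The sets of Dbp thus overlapped in Cyp7a1, as vehicle rat 2 was high in Cyp7a1 and low in Dbp. The other 9 rats fell into the sets of Dbp, at up to 11.43 against 11.66 and above. That rat was set aside after its value was seen, and the share of all genes that split so without it was not counted. Fgf21 differed by -0.72, Ppara was below the background in all 10 rats, and Alb, whose D-site gave DBP its name, by -0.001 near the top of the scale.

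Among 12 other genes with a known daily rhythm in liver, 5 had a higher and 7 a lower mean with CVX-060 (median -0.07), and 0 passed in limma (0 at an unadjusted p under 0.05). Elovl3, counted among the higher, was not above the background in any of the 10 rats. Nampt, of NAD synthesis, differed by -0.51, the cell cycle kinase gene Wee1 by -0.34 and Rgs16 by -0.54. Usp2, a deubiquitinase gene, had 7.87, 8.63, 7.50, 8.82 and 8.71 with CVX-060 and 8.62, 7.24, 8.68, 9.10 and 9.53 with vehicle. Its 5 lower rats were those of Dbp, but narrowly, at up to 8.63 against 8.68 and above in the others. Only 1 of the 12 genes split so, beside 1.66% of the other 14216 genes in the same direction. Target genes of glucocorticoids, hormones that can reset the liver clock, were lower in 6 and higher in 1 of 7 measured (median -0.10), with Tat at -0.17 and Fkbp5 at 0.55, and 0 passed (0 at an unadjusted p under 0.05).

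**Figure D5:**
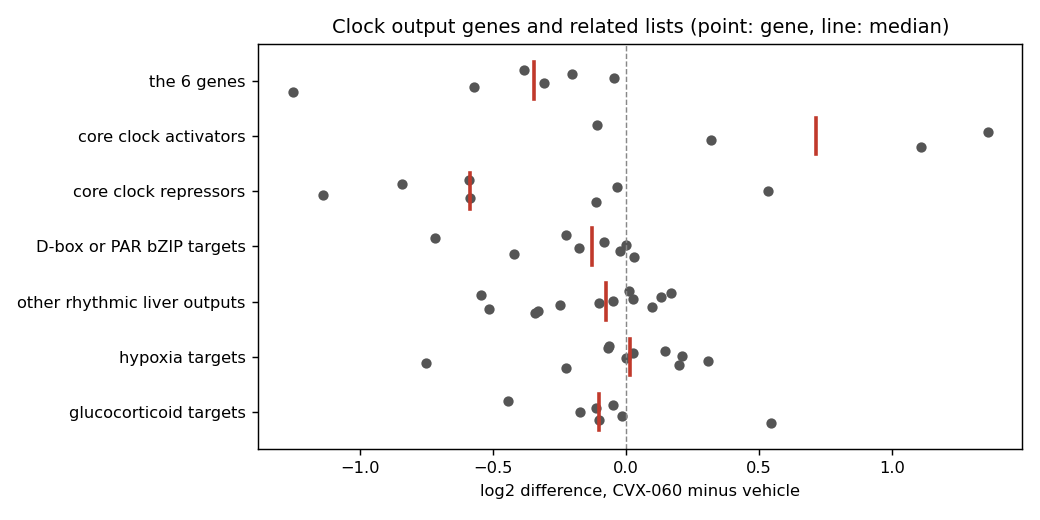
Points are single genes of the 6 members and of 6 related lists, placed by CVX-060 minus vehicle in log2 units, with a red line at the median of each list. The medians are -0.35 for the members, 0.71 for core clock activators and -0.59 for core clock repressors, and from -0.13 to 0.01 for the other lists.

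Markers of other liver cells were read in the same arrays, and 0 passed an adjusted p of 0.05 in limma. Macrophage and Kupffer markers, 4 measured, were all higher in their mean with CVX-060, with their mean level between 9.33 and 10.07 in the CVX-060 rats and between 9.25 and 9.74 in the vehicle rats. Sinusoidal endothelial markers Lyve1 and Stab2 differed by 0.44 (unadjusted p = 0.0162 in limma) and 0.35, bile duct markers (3 measured) had a median difference of 0.17 and stellate cell markers (4 measured) of 0.17. The bile duct median is that of Epcam, as Krt7 was not above the background in any of the 10 rats and Krt19 not in 5 of them. Hepatocyte markers (4 measured) had a median of 0.03, and the single B cell marker Ms4a1 and the skeletal muscle markers were below the background in all 10 rats. Their part in the values of the members was not tested.

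The genes most like each member over the 10 rats were listed by Pearson's r as a description. For Dbp they were Higd1a (r = 0.971), Ifrd2 (0.959), Erlin1 (0.954), Gtf3a (0.944) and Bri3 (0.933), and since Dbp falls into separate sets of rats this r does not measure likeness within either set. For Nfil3 they were Gfer (0.952), Zfhx4 (0.945), Decr1 (0.938), Gmeb2 (0.928) and Pnrc1 (0.920). Tef was closest to Prdm11, Snx25, Kiaa1191, Mep1a and Nherf1 (r from 0.953 to 0.915), Hlf to Amh, Bves, Nat14, Trib1 and MAST1 (0.962 to 0.929) and Bhlhe41 to Gon7, Ccdc96, Trim8, Wsb2 and Btbd3 (0.957 to 0.902). For Bhlhe40 the nearest genes were Zfp36, Spock1, Zfp933 and Amh, and the fifth was another member, Hlf (r = 0.907). These are the highest values among 14216 genes over 10 rats, and were picked for being so.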

How the data were processed

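Whole-liver RNA of 10 rats (150 ng each) was hybridized to Affymetrix GeneChip Rat Genome arrays, 5 CVX-060 and 5 vehicle. Each probe set has a deposited log2 signal, normalized between arrays by the authors. In the submitters' processing notes the tools are R 3.4.0, affy 1.56.0 and limma 3.38.2, whereas the background correction and summary method are not given in the sources used here. Of 31099 probe sets, 57 controls, 9780 lacking a symbol and 436 with several were dropped, and 20826 of 14217 genes remained, named by the platform annotation. Gene IDs of 20758 were found in the RefSeq gene table, which changed 0 symbols. Groups were taken from the treatment labels and titles.

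The members, lists and tests were chosen with earlier results of these data known. Of each gene the most variable probe set was kept. CVX-060 and vehicle were compared by lmFit and eBayes in limma 3.58.1 (R 4.3.3), adjusted over all genes by Benjamini-Hochberg at 0.05, and for single genes by exact permutation, two-sided, over the 252 splits of 10 rats (smallest p 0.00794). The fit was tested on simulated data. Each rat is 1 animal and 1 array, so the number of arrays limits the precision. Named genes were the members with all probe sets, the measured core clock genes, up to 3 genes of each other list by smallest p, and the 5 genes most like each member. Cyp7a1, Usp2, Alb, Car9, Adm, Egln3 and Elovl3, and the markers given singly, were named after their values were seen. The alternatives took the brightest probe set of a gene, or every probe set, dropped genes under the 40th percentile of mean signal, repeated quantile normalization, centred the array medians, weighted the arrays, fitted a robust trended prior, blocked on the replicate number, left rats out, or added Bmal1 as a covariate. Promoters were taken from RefSeq (GRCr8). Other steps used matplotlib 3.10.9, scipy 1.17.1, pandas 2.3.3 and numpy 2.4.6 under Python 3.11.15.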

Additional observations from a re-analysis of the deposited data

Results flagged for a closer look

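Among 44 groups of 5 rats examined (the members' probe sets, Bmal1 and the core clock genes), 2 held a rat far from the other 4 by Dixon's test, where chance marks about 1 group in 20. In Bhlhe41, vehicle rat 1 lay at 5.17, where the other vehicle rats lay from 6.002 to 6.27. In Npas2, which can stand in for Clock, vehicle rat 2 lay at 7.71, where the other vehicle rats lay from 3.93 to 4.93. Those 4 signals are below the background of their arrays, so the test rests on spacings that are no expression levels and shows only that Npas2 was above the background in vehicle rat 2 alone of the 5 vehicle rats. Vehicle rat 1 was likewise below the background in Bhlhe41.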

How the results depend on the processing

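The number of genes and of members past an adjusted p of 0.05 was 0 in limma under every alternative, as was the number of all 20826 probe sets tested without choosing 1 per gene, a count added after seeing the data. Over the alternatives, 112 of 118 differences of single members kept their direction, with adjusted p from 0.834 to 0.99997. Dbp, Tef, Hlf, Bhlhe40 and Bhlhe41 were lower with CVX-060 in all of theirs. Many could not change, as the trended prior, the filter, the replicate block and a gene's only probe set leave the main difference as it is. The count also holds 1390819_at and 1385585_at more than once, and probe sets below the background in all rats. It is therefore no measure of stability. Nfil3 was higher with CVX-060 with array weights (0.22) and without vehicle replicate 2 and CVX-060 replicate 5 (0.25), and the cause was not tested. With single rats left out it ran from -0.14 to 0.11, Dbp from -1.86 to -0.86, Tef from -0.89 to -0.40, Hlf from -0.61 to -0.15, Bhlhe40 from -0.33 to -0.09 and Bhlhe41 from -0.57 to -0.27. Array weights gave -2.30 for Dbp and -0.83 for Tef (unadjusted p = 0.0226 and 0.00671 in limma, adjusted p = 0.983 for both). Dbp was at -2.34 without both rats that stood apart (unadjusted p = 0.0328 in limma, adjusted p = 0.99986). Over all genes, the deviations of rats of the same number correlated from -0.173 to 0.153 over 5 pairs. For no CVX-060 rat was the vehicle rat of its own number the closest, as that rat came at ranks from 2 to 4. In Dbp, rats 1 and 2 were low and rats 4 and 5 high in both groups, while rat 3 was low only with CVX-060. Beyond those correlations, whether rats of the same number share more than the number was not tested. The replicate block left Dbp at -1.25 and Tef at -0.57 (unadjusted p = 0.0442 and 0.0469, adjusted p = 0.99997 for both) and called 0 genes. Bhlhe41 did not pass the filter on low signals and has no value there. Signals below the background limit what the differences of Bhlhe41, and of Bmal1, Npas2, Nr1d1 and Per3, can show.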
